A study of Homo sapiens with 8 samples.

Results

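The 8 ATAC-seq peak lists held 5837 peaks on sequences that the human genome build carries outside its assembled chromosomes, of 1552428 peaks in all. They were chosen by sequence name alone, as every peak whose sequence is not chromosome 1 to 22, X or Y. All lay on 68 contigs of build hg38. Of the 68, 30 were unlocalised contigs, which are tied to a chromosome but not to a position on it, and they held 2578 peaks. The other 38 were unplaced contigs, whose chromosome is not known, and they held 3259 peaks. The whole-series lists held 151151 to 253723 peaks each, and their read depth is unknown because they give no read totals.

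ATAC-seq uses the transposase Tn5 to insert sequencing adapters into accessible DNA. All 8 libraries came from hTERT RPE-1 cells, a telomerase-immortalised human retinal pigment epithelial line, with the genotype Plk1-/- EGFP-Plk1as. These cells lack endogenous Plk1, a mitotic kinase, and depend on a tagged form whose enlarged ATP pocket admits the bulky inhibitor 3MB-PP1. Both groups had been held for 16 h in 5 µM STLC, an inhibitor of the spindle motor Eg5, and mitotic cells were shaken off. Still in STLC, 4 samples then received 0.5% DMSO and 4 received 10 µM 3MB-PP1 for 2 h, and 50000 cells with a mitotic index above 95% went into each reaction. The labels call the samples biological replicates without saying whether they came from separate cultures, so a p-value measures the spread between these samples. Every result therefore concerns cells arrested in prometaphase, in 1 engineered line.

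Unplaced and unlocalised contigs gather sequence that could not be fitted into the chromosome assemblies, much of it satellite repeats, segmental duplications and ribosomal DNA (rDNA). Ribosomal DNA encodes the 45S precursor of the 18S, 5.8S and 28S ribosomal RNAs and lies in tandem arrays, the nucleolar organiser regions, on the short arms of the acrocentric chromosomes. Each repeat holds the transcribed 45S gene and a long intergenic spacer. RNA polymerase I transcription of these genes is shut off in mitosis, while the factor UBF stays bound to active arrays.

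As a check of the cell type, 3 of 10 pigment epithelium markers (PMEL, MITF and OTX2) had a peak within 1 kb of a gene end in all 8 lists, and RPE65 had one in 0. The keratin genes KRT8 and KRT18 had one in all 8, but so had the T cell gene CD3E, so gene-end peaks of this kind do not separate cell types. The libraries also differed along their replicate numbers. Chromosome X held 0.865% to 0.930% of the peaks in the 4 lists numbered 1 and 3 and 0.592% to 0.691% in the 4 numbered 2 and 4. What these numbers stand for is not given in the labels, and for the main differences the values within odd and within even numbers are printed beside the pooled one. Those within-number values rest on 2 libraries a group, for which no exact two-sided p can be below 0.333.

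Peaks on the contigs stood high within every list. The pileup percentile of a peak is its rank by pileup (fragment coverage) within its own list, where 100 is the highest. The median percentile of contig peaks was 77.8, 82.1, 79.6 and 84.2 in DMSO replicates 1 to 4 and 83.0, 85.6, 81.8 and 88.0 in 3MB-PP1 replicates 1 to 4. Every list thus placed the middle contig peak far above its own midpoint. Over the 8 lists the contig median exceeded the chromosome median by 32.9 ± 3.32 points (SD, n = 8), and it did so in 8 of 8 lists (exact two-sided sign-flip permutation test, p = 0.0078, the smallest that 8 lists allow). Contig peaks also passed a strict threshold more often. A −log10 q of at least 5 was reached by 27.4% ± 1.42 (SD, n = 8) of contig peaks and 6.41% ± 2.64 (SD, n = 8) of chromosome peaks, again in the same order in 8 of 8 lists (exact sign-flip permutation p = 0.0078). Recurrence across lists was counted over merged regions. Overlapping peaks of the 8 lists merged into 1191 contig regions, and 332 of these (27.9%) had a peak in all 8 lists, against 6.27% of the 589459 merged regions of all sequences. Regions seen in a single list made up 26.8% on contigs and 51.9% on chromosomes.

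The number of contig peaks was 566, 672, 638 and 734 with DMSO and 792, 802, 957 and 676 with 3MB-PP1. Replicates 1 to 3 of the 3MB-PP1 group lay above all DMSO lists and replicate 4 did not. The means were 653 ± 70.04 and 807 ± 115 (SD, n = 4 each), and the difference of 154 peaks did not pass the test (p = 0.0571 by exact permutation of the 70 possible splits, two-sided; p = 0.2 after Benjamini-Hochberg adjustment across 7 measures). Replicates 1 and 3 gave 272.5 and replicates 2 and 4 gave 36. Without 3MB-PP1 replicate 4 the difference was 198 (exact permutation p = 0.0286). The share of a list that lay on contigs was 0.374%, 0.423%, 0.321% and 0.367% with DMSO and 0.369%, 0.392%, 0.377% and 0.394% with 3MB-PP1. These shares overlapped, and their means of 0.372% ± 0.0415 and 0.383% ± 0.0121 (SD, n = 4) differed by less than the spread between replicates (exact permutation p = 0.629). The difference changed sign within the even-numbered replicates (0.0254 percentage points in odd numbers, -0.00176 in even numbers) and without DMSO replicate 3 (-0.00492). It was larger in some other settings, though without passing the test. With lists cut to equal length the shares were 0.418% ± 0.0412 and 0.496% ± 0.0467 (SD, n = 4, exact permutation p = 0.0857). Among peaks with a −log10 q of at least 5 they were 1.39% ± 0.508 and 2.20% ± 0.437 (SD, n = 4, exact permutation p = 0.0571). Without the contig of most covered length the difference was smaller (0.00628 percentage points). The peaks covered 421, 504, 499 and 516 kb of contig sequence with DMSO and 399, 481, 499 and 441 kb with 3MB-PP1, which also overlapped (exact permutation p = 0.343, adjusted p = 0.48). That difference was -10.9 kb in odd and -49.0 kb in even numbers. Contigs with at least 1 peak numbered 54 to 58 and 55 to 63 in the DMSO and 3MB-PP1 lists.

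With 3MB-PP1 the contig peaks were narrower. Median widths were 532, 531.5, 546 and 506.5 bp in DMSO replicates 1 to 4 and 354, 421, 372 and 460.5 bp in 3MB-PP1 replicates 1 to 4. All 4 DMSO lists lay above all 4 3MB-PP1 lists. The means were 529 ± 16.4 bp and 402 ± 48.3 bp (SD, n = 4 each), and they differed by -127 bp. The exact permutation p was 0.0286, the least that 4 against 4 can give, and the Benjamini-Hochberg adjusted p was 0.2 across 7 measures. With this smallest p, no measure can reach a low adjusted p unless several of the 7 have a low p too. Replicates 1 and 3 gave -176 bp and replicates 2 and 4 gave -78.25 bp, and with the replicate number as a block the exact p was 0.125, the smallest that 4 pairs allow. Leaving out any 1 of the DMSO replicates gave an exact permutation p of 0.0571, at differences of -135 to -121 bp. Chromosome peaks were narrower too, again without overlap, going from a mean of 390.5 ± 25.2 bp to 291 ± 24.9 bp (SD, n = 4). Taken sequence by sequence, the 3MB-PP1 median widths lay below all DMSO ones in 10 of the 49 contigs with a peak in all 8 lists, against 45.2% of all 73 such sequences. The difference on contigs minus that on chromosomes was -27.9 bp, which did not pass the test (exact permutation p = 0.0857) and was -39.5 bp in odd and -16.25 bp in even numbers. As a ratio, contig peaks were 1.36 ± 0.0530 times as wide as chromosome peaks with DMSO and 1.38 ± 0.0514 times with 3MB-PP1 (SD, n = 4, exact permutation p = 0.629). The smallest width in a list was 114 to 135 bp with DMSO and 90 to 109 bp with 3MB-PP1. With peaks under 135 bp left out of every list, the difference was -93.6 bp on contigs and -63.75 bp on chromosomes (exact permutation p = 0.0286 for each). That contig peaks were the wider kind depended on the threshold: the mean excess of 125 bp over chromosome peaks became -669 bp among peaks with a −log10 q of at least 5.

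**Figure D1:**
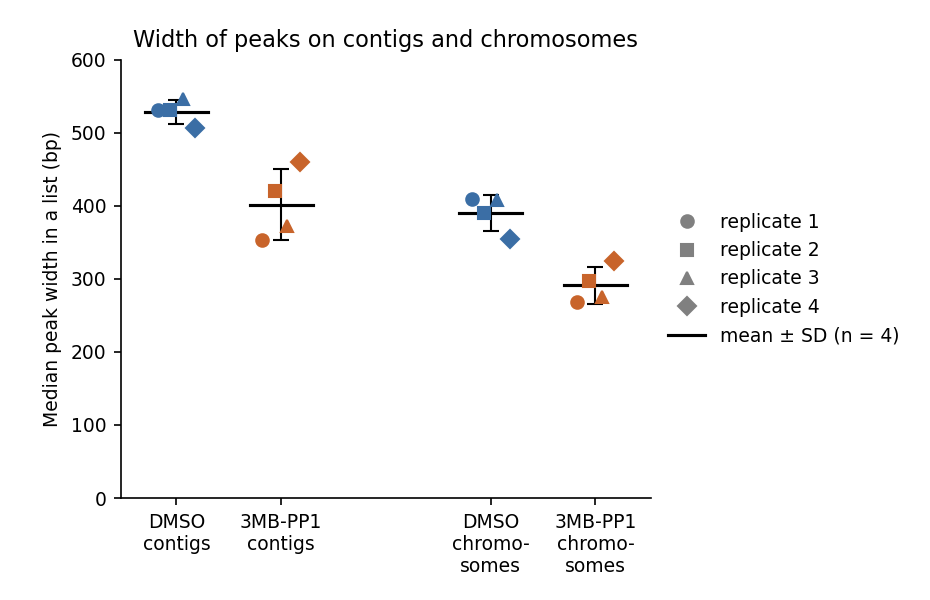
Median width in bp of the peaks in each list, for contigs on the left and chromosomes 1 to 22 and X on the right. Symbols are replicates, and black lines are group means with SD (n = 4). The DMSO lists lie above the 3MB-PP1 lists on both kinds of sequence.

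Median pileup percentile was higher with 3MB-PP1 in 4 of 4 same-numbered pairs, but the groups overlapped. The means were 80.9 ± 2.83 and 84.6 ± 2.80 (SD, n = 4), a difference of 3.68 points (exact permutation p = 0.143, adjusted p = 0.333) that was 3.70 in odd-numbered and 3.66 in even-numbered replicates. Among peaks with a −log10 q of at least 5 the gap was larger. For this, percentiles were taken anew among the passing peaks of each list, so they cannot be set against those above. Ranked so, the median percentile of contig peaks was 65.6 ± 10.3 with DMSO and 85.1 ± 3.81 with 3MB-PP1 (SD, n = 4, difference 19.5, exact permutation p = 0.0286). The sets ranked differed too, as 8.17% ± 2.72 of chromosome peaks passed with DMSO and 4.65% ± 0.759 with 3MB-PP1 (SD, n = 4).

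The top of each list showed how many of the highest pileups lay on contigs. Of the 10 highest peaks in a list, 8, 9, 7 and 9 were on contigs with DMSO and 9 were on contigs in each 3MB-PP1 list. Of the 100 highest, 19, 25, 16 and 32 were on contigs with DMSO and 34, 41, 35 and 54 with 3MB-PP1. The 3MB-PP1 lists all held more than the DMSO lists, and in both groups the even-numbered lists held more than the odd-numbered ones of the same group. The means were 23 ± 7.07 and 41 ± 9.20 (SD, n = 4), 18 peaks apart (exact permutation p = 0.0286, two-sided). This measure was chosen after the data had been seen. It counts peaks, so a region called in pieces can count more than once. The region of highest pileup was 1 peak in each DMSO list and 2 in 3MB-PP1 replicates 1 and 3. A wide intergenic spacer stretch on KI270733 was 1 peak in each DMSO list and 3 or 4 in the 3MB-PP1 lists. How far such splitting entered the gap was not tested. The gap was 17 between replicates 1 and 3 and 19 between replicates 2 and 4. The groups overlapped among the 50 highest (exact permutation p = 0.0857), the 500 highest (p = 0.0857) and the 1000 highest peaks (p = 0.0571), and also when peaks were ranked by fold enrichment. With the replicate block the p at 100 was 0.125 (exact permutation), and without 3MB-PP1 replicate 4 the difference was 13.7 (exact permutation p = 0.0571). The contigs that filled these places were few. KI270733 held 8 to 11 of the 100 highest peaks with DMSO and 13 to 15 with 3MB-PP1. GL000225 held 2 to 8 and 8 to 20, KI270438 held 3 to 5 and 5 to 6, and GL000216 held 0 to 1 and 2 to 4.

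**Figure D2:**
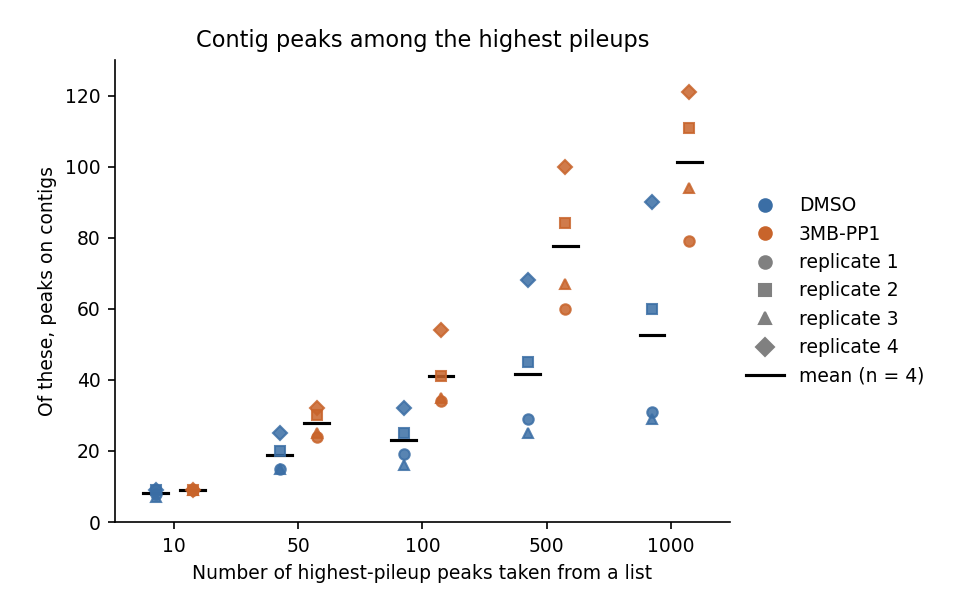
Number of contig peaks (vertical axis) among the 10, 50, 100, 500 and 1000 peaks of highest pileup in each list (horizontal axis). Symbols are replicates and black lines are group means (n = 4). At 100 the DMSO lists reach at most 32 and the 3MB-PP1 lists start at 34.

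The peak of highest pileup was the same one in all 8 lists. It lay on the unplaced contig KI270438 (chrUn_KI270438v1) between positions 108742 and 110590. Its fold enrichment, in the authors' files, ran from 5.15 to 6.66 over the 8 lists, each value being relative to its own library's background. Called as 1 peak of 1843 to 1848 bp in every DMSO list, it was split into 2 peaks in 3MB-PP1 replicates 1 and 3. A pair of further regions on the same contig, at 103774 to 105077 and at 111652 to 112457, ranked between 2 and 5 in every list. No gene annotation of KI270438 was used here. Of its other regions called in all 8 lists, 4 had mean percentiles of only 51.9 to 82.0, so the contig joined the highest peaks of the lists to middling ones.

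The remaining places among the highest 6 peaks fell to rDNA. The gene table gives the 45S gene RNA45SN4 as lying on chromosome 22 at 122273 to 135645 without naming its sequence. By background knowledge it was placed on KI270733 (chr22_KI270733v1_random), and RNA45SN5, at 105424 to 118780 on a sequence the table calls unknown, on GL000220 (chrUn_GL000220v1). On KI270733 the region at 129832 to 130370, across the end of internal spacer 2 and the start of 28S, ranked 5, 4, 4 and 4 with DMSO and 2, 4, 2 and 4 with 3MB-PP1. Its fold enrichment ran from 8.92 to 14.5 over the 8 lists. The region at 134886 to 136542, over the end of 28S and the whole 3′ external spacer, ranked 3 to 5 with DMSO and 6 in each 3MB-PP1 list. The region at 172947 to 173521, downstream of the 18S pseudogene RNA18SP4, ranked 6 in each DMSO list and 3 to 5 with 3MB-PP1. These neighbours in rank moved past one another by a few places only, all within the highest 6.

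Within the 45S gene of KI270733 the called peaks followed the spacers rather than the mature RNAs. The 5′ external spacer had a peak in all 8 lists, covering 970 ± 166 bp with DMSO and 854 ± 5.8 bp with 3MB-PP1 (SD, n = 4) of its 3658 bp. Internal spacer 1 was 82.5% covered and the 3′ external spacer 100% covered in the average list. The 18S and 5.8S sequences had a peak in 0 lists, and 28S was covered over 10.0% of its length. Across the whole 45S gene the covered share was 23.4% with DMSO and 21.97% with 3MB-PP1. Within 1 kb of the 45S start a peak was called in 1 list, of the DMSO group. A missing call says only that no peak passed the authors' threshold in that list.

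The copies differed. RNA45SN5 on GL000220 had peaks in the 3′ external spacer in all 8 lists, over 169 ± 13.2 bp with DMSO and 143 ± 9.71 bp with 3MB-PP1 (SD, n = 4), and none in any other section. On the assembled chromosome 21, RNA45SN1 had peaks only in 28S, in 7 of 8 lists. RNA45SN2 had a peak in internal spacer 2 in all 8 lists and in the 5′ external spacer in 6. It had one in 28S in 4 lists, which were the odd-numbered lists of both groups. RNA45SN3 had one in internal spacer 2 in 2 lists, both DMSO. It had one in 28S in 2 lists, both 3MB-PP1 and both odd-numbered. The 28S calls of RNA45SN2 and RNA45SN3 thus fell only in odd-numbered lists. Its 5′ external spacer had a peak in 1 DMSO list and 4 3MB-PP1 lists, and its 3′ external spacer in 1 list. The copies are near-identical, so how the authors' aligner shared reads among them could set which copy carried a peak. That treatment is not given in the sources used here and was not tested.

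The widest peak of each DMSO list also lay on KI270733, in the intergenic spacer. It ran from 8.32 to 16.6 kb past the end of the 45S gene (positions 143963 to 152291 over all lists) and was called as 1 peak of 8280, 8299, 8300 and 8322 bp in the DMSO replicates. The next widest peaks of those lists, on the chromosomes, were 4762 to 5924 bp. With 3MB-PP1 the same stretch was called as 3, 3, 4 and 3 peaks, the widest of them 3677, 4205, 4189 and 4210 bp. All DMSO lists had it whole and all 3MB-PP1 lists had it broken. A gap that began at 147640 or 147641 and ended between 148079 and 148086 recurred in all 4 3MB-PP1 lists, and the gaps between pieces measured 373 to 455 bp. The called length went from 8300 ± 17.2 bp to 7336 ± 198 bp (SD, n = 4). As this stretch was picked for its width after the lists had been read, no test is attached to it. Fold enrichment over the stretch, a ratio to local background, was low although its pileup was high. It was 1.88 to 1.96 in the DMSO lists and 1.74 to 2.29 over the 3MB-PP1 pieces. By pileup the stretch did not drop in rank. Among the 36961 regions called in all 8 lists its mean rank percentile was 99.4 with DMSO and 99.9 with 3MB-PP1.

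**Figure D3:**
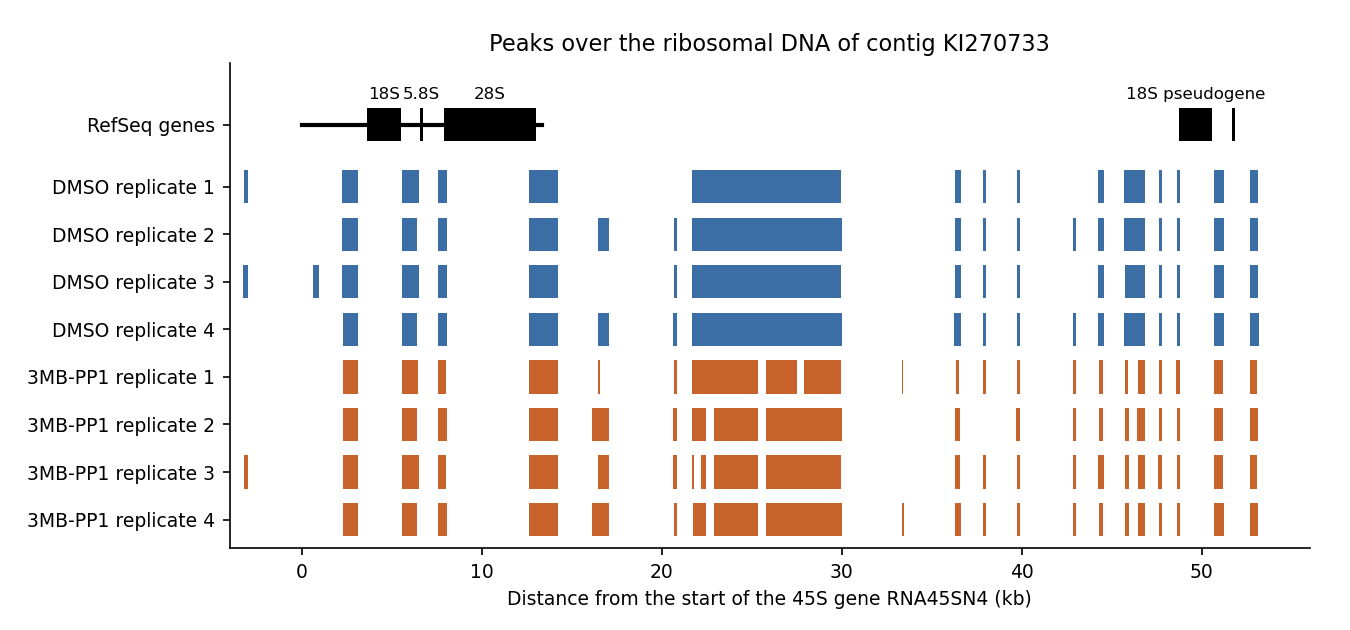
Called peaks (coloured bars) in each of the 8 lists along the rDNA of contig KI270733, by distance in kb from the start of the 45S gene RNA45SN4. The upper row gives the gene as a line and the 18S, 5.8S and 28S RNAs and the pseudogenes as boxes. The wide spacer peak is whole in the 4 DMSO lists and in 3 or 4 pieces in the 3MB-PP1 lists.

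Of the regions called in all 8 lists, 16 of 18 on KI270733 and 13 of 13 on GL000220 had a lower mean called length with 3MB-PP1. Over all 36961 such regions the share was 80.6%, so a lower length was the general pattern. On KI270733 at 167941 to 169152, upstream of RNA18SP4, the lists called 1196, 1123, 1128 and 1212 bp with DMSO and 591, 595, 634 and 582 bp with 3MB-PP1. Every 3MB-PP1 list called far less than any DMSO list, as separate peaks in place of 1, and the groups did not overlap. On GL000220 at 145390 to 145761, past the end of the 45S gene, the called length was 280, 372, 281 and 312 bp with DMSO and 140, 125, 130 and 127 bp with 3MB-PP1. On the same contig but well before the 45S gene, 51777 to 52775 went from 712 ± 148 bp to 357 ± 67.2 bp (SD, n = 4), also without overlap. By contrast 134886 to 136542 on KI270733 held its length, at 1614 ± 9.95 bp and 1606 ± 19.0 bp.

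The 332 contig regions called in all 8 lists lay on 49 contigs and had a median length of 1383 bp (203 to 8329 bp). Their median within-list percentile was 92.2. Of them 59 averaged above the 99th percentile, on 14 contigs, with 24 on GL000225 and 11 on KI270733, and 16 averaged below the 50th. To compare groups free of list length, each list ranked the same 36961 regions, of which 332 were on contigs. The mean rank of a contig region was higher with 3MB-PP1 in 287 cases and lower in 44. On chromosomes 18171 regions ranked higher and 18451 lower. The median shift was 6.69 percentile points on contigs and -0.0342 on chromosomes. With odd numbers alone 286 of 332 contig regions went up, with even numbers alone 270, and in 275 to 296 when any 1 library was left out. The median shift was 8.87 in odd and 4.00 in even numbers, and it ran from 3.88 without DMSO replicate 1 to 9.02 without DMSO replicate 4.

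Fewer regions separated the groups fully. All 4 3MB-PP1 lists ranked a region above all 4 DMSO lists in 28 of the 332 contig regions (8.43%), against 2.91% of all regions. The opposite order held in 3 contig regions (0.904%), against 5.24% of all regions. Regions on 1 contig and in 1 library are not independent, so the test was made over libraries. The median rank of contig regions per list averaged 67.2 ± 7.76 with DMSO and 74.6 ± 6.08 with 3MB-PP1 (SD, n = 4), higher in 4 of 4 same-numbered pairs. This difference of 7.42 points did not pass the test (exact two-sided permutation p = 0.171), being 8.95 in odd-numbered and 5.90 in even-numbered replicates. The counts of regions are thus a description of these 8 lists. Ranked by fold enrichment in place of pileup, 266 contig regions were higher with 3MB-PP1, and by −log10 q 288 were.

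**Figure D4:**
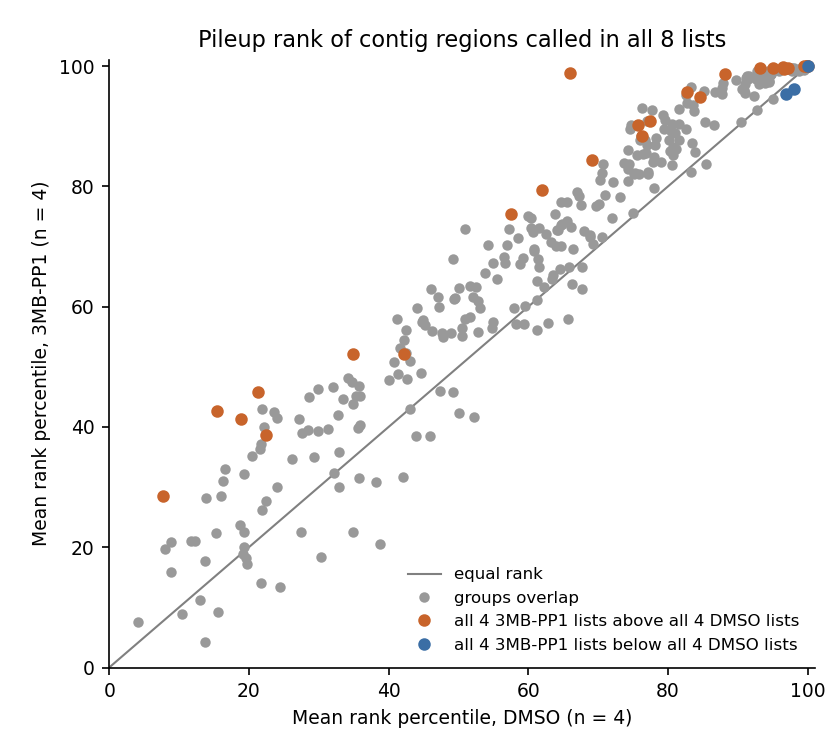
Mean rank percentile by pileup of the 332 contig regions called in all 8 lists, with DMSO on the horizontal and 3MB-PP1 on the vertical axis (n = 4 lists each, ranks taken among 36961 regions). The grey line marks equal ranks, and 287 points lie above it. Coloured points are the 28 regions ranked higher and the 3 ranked lower in every 3MB-PP1 list than in every DMSO list.

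The shift was spread over contigs. Of the 49 contigs, 45 had a positive median shift and 4 a negative one. Of the 14 contigs with at least 10 such regions, 14 had a positive median shift, from 0.0118 points on KI270733 to 12.5 on GL000214. The 23 chromosomes ranged from -3.88 to 3.44, and 11 of these 14 contigs exceeded the highest of them. All 38 such regions on GL000225 ranked higher with 3MB-PP1. The 28 regions that separated the groups lay on 12 contigs, with 7 on GL000216 and 6 on GL000225. The largest shift among them was on GL000214 (chrUn_GL000214v1) at 64953 to 65335, a region named after its values were seen. Its rank percentile was 46.6, 70.5, 51.7 and 95.1 with DMSO and 98.7, 98.7, 98.6 and 99.1 with 3MB-PP1. The 3MB-PP1 lists lay close together at the top, while the DMSO lists were spread, with replicate 4 nearest to them. In the opposite direction, the region at 20875 to 22639 on KI270713 (chr1_KI270713v1_random) had ranks of 98.2, 98.1, 97.8 and 98.1 with DMSO and 96.6, 96.4, 95.6 and 95.9 with 3MB-PP1.

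Called length was compared over the same 332 regions. With 3MB-PP1 less was called in 225 of 332 contig regions (67.8%) and in 80.7% of chromosome regions. All 4 3MB-PP1 lists called less than all 4 DMSO lists in 22 contig regions (6.63%), against 10.8% of all regions, and more in 2 (0.602%), against 0.379%. Over libraries, the median called length per contig region was 915 ± 62.1 bp with DMSO and 819 ± 53.7 bp with 3MB-PP1 (SD, n = 4, exact permutation p = 0.114), a difference of -83 bp in odd and -108.5 bp in even numbers. On chromosomes it was 1085 ± 91.8 bp and 849 ± 43.8 bp (exact permutation p = 0.0286). The ratio of contig to chromosome length went from 0.848 to 0.967, and this difference between the 2 kinds of sequence did not pass the test (exact permutation p = 0.114). The 22 shorter regions lay on 10 contigs, 6 of them on KI270733, 4 on GL000225 and 4 on GL000220. The steepest of them was on KI270538 (chrUn_KI270538v1) at 87043 to 90027. It had 2596, 2015, 2985 and 1630 bp called with DMSO and 453, 746, 697 and 750 bp with 3MB-PP1, without overlap. An example of the opposite order was 62332 to 64675 on GL000205 (chr17_GL000205v2_random), with 1167, 1760, 1695 and 2041 bp with DMSO and 2066, 2195, 2312 and 2293 bp with 3MB-PP1.

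Few contig regions were exclusive to a treatment. A single contig region, 44800 to 45239 on KI270438, was called in all 4 DMSO lists and no 3MB-PP1 list, and a single one, 72 to 471 on KI270750 (chrUn_KI270750v1), in all 4 3MB-PP1 lists and no DMSO list. Over all sequences these patterns held for 0.119% and 0.148% of regions, so 1 of 1191 contig regions in each direction was near that share. Without DMSO replicate 4 the counts were 4 and 7. The 2 exclusive regions were weak calls, with a −log10 q between 1.46 and 2.37. Asking for at least 3 of 4 lists of 1 group and none of the other gave 5 contig regions for DMSO (0.420%, against 0.758% of all regions) and 15 for 3MB-PP1 (1.26%, against 1.05%). Regions called in just 1 list numbered 108 in the DMSO group (9.07%, against 19.4% of all regions) and 211 in the 3MB-PP1 group (17.7%, against 32.4%).

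Contig peaks were concentrated. The 12 contigs with the most peaks held 3294 of the 5837 (56.4%) and 57.5% of the covered length. Their mean peak number was higher with 3MB-PP1 in 12 of 12 contigs and their mean width lower in 12 of 12. The numbers were not scaled to list length, which differed between lists. As a share of the list, the mean was lower with 3MB-PP1 on KI270442, KI270733, GL000205 and GL000219 and higher on the rest of the 12. In 5 of the 12 contigs (GL000225, GL000219, GL000218, GL000216 and GL000195) the median widths of the groups did not overlap. The same held, with 3MB-PP1 narrower, for 45.2% of all 73 sequences with a peak in all 8 lists and for 23 of 24 chromosomes. Over the other 56 contigs, with 2543 peaks, the mean number was higher with 3MB-PP1 in 36, lower in 5 and equal in 15.

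GL000225, unlocalised on chromosome 14, had the most peaks, with 547 in all. The lists held 49, 62, 53 and 64 peaks there with DMSO and 85, 78, 87 and 69 with 3MB-PP1. All 3MB-PP1 lists exceeded all DMSO lists, most clearly in the odd-numbered replicates. Those peaks covered less of the contig, at 39.2 ± 0.815 kb with DMSO and 32.8 ± 1.33 kb with 3MB-PP1 (SD, n = 4), and were narrower, with median widths of 405.5 to 523 bp and 301 to 361 bp. Their median percentile was 98.5 ± 1.08 and 99.6 ± 0.3 (SD, n = 4). GL000225 thus carried more, shorter and highly ranked peaks with 3MB-PP1, in lists that were also longer on the whole in 3 of 4 pairs.

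KI270733, with 225 peaks, showed less change in number, at 27, 28, 28 and 25 with DMSO and 29, 28, 30 and 30 with 3MB-PP1. The covered length there was 21.9 ± 1.12 kb and 19.0 ± 0.869 kb (SD, n = 4). The unplaced contig GL000219 had 366 peaks. Its number was 41.75 ± 2.22 with DMSO and 49.75 ± 4.03 with 3MB-PP1, and its median width ran from 585 to 827 bp and from 404.5 to 568.5 bp. GL000216 had 26.0 ± 2.00 and 35.75 ± 8.22 peaks, its replicate 4 with 3MB-PP1 lying at 25, the level of the DMSO lists. KI270442, with 343 peaks, had 41.5 ± 1.91 and 44.25 ± 11.03, the widest spread of these contigs, from 32 in 3MB-PP1 replicate 4 to 58 in replicate 3. GL000224 (314 peaks in all), GL000218 (282), GL000195 (211), GL000205 (199), GL000009 (197), GL000194 (196) and KI270744 (167) complete the 12. Their median percentiles set them apart more than their numbers did. GL000205 stood at 94.9 ± 2.06 with DMSO and 96.9 ± 0.914 with 3MB-PP1, whereas GL000009 stood at 55.3 ± 6.05 and 59.6 ± 1.76 (SD, n = 4).

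**Figure D5:**
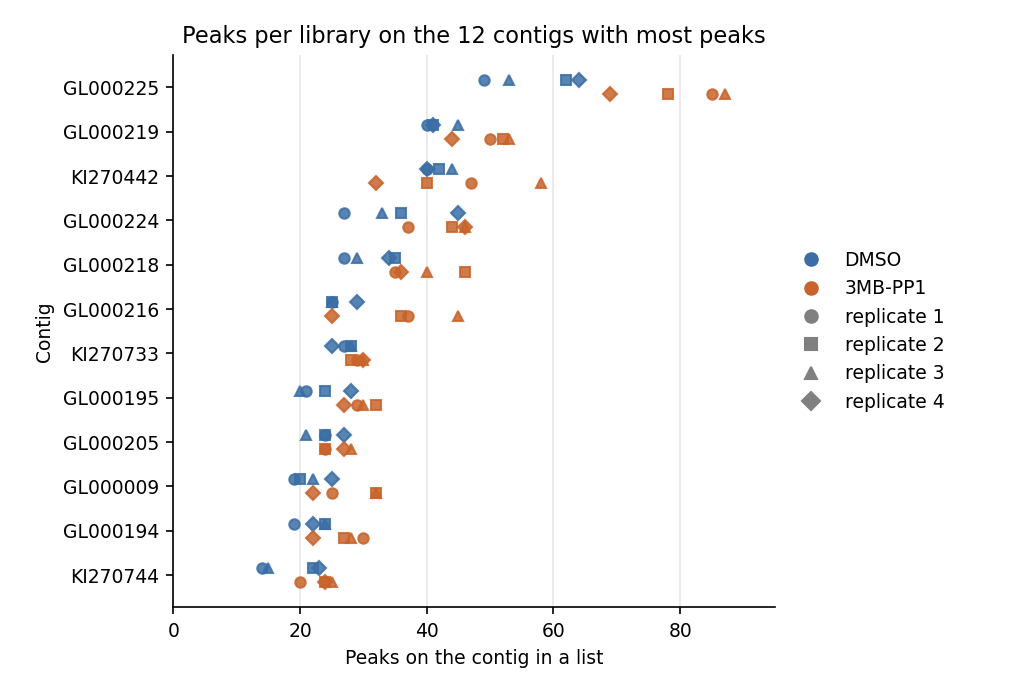
Number of peaks in each list (horizontal axis) on the 12 contigs with most peaks over the 8 lists, with DMSO in blue, 3MB-PP1 in orange and symbols for replicates. The 3MB-PP1 values of GL000225, at 69 to 87, lie above its DMSO values of 49 to 64.

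The share of a list's peaks was tested for 83 sequences with a peak in at least 4 lists, 60 of them contigs. None passed adjustment (exact two-sided permutation tests, smallest Benjamini-Hochberg adjusted p = 0.593), and 3 had an unadjusted p of 0.0286. As 0.0286 is the smallest possible p here, a few sequences cannot pass adjustment over 83 whatever their difference. The adjusted values thus do not show that a given sequence was unchanged. Of the contigs 30 had a higher and 30 a lower mean share with 3MB-PP1. Only KI270538 among them had groups that did not overlap, with 0.00451% ± 0.000435 of a list's peaks with DMSO and 0.00316% ± 0.000599 with 3MB-PP1 (SD, n = 4). Over all 83 sequences, 3.61% were lower and 0.0% higher without overlap.

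Both kinds of contig had a lower mean width with 3MB-PP1. The median width was 503 ± 19.5 bp with DMSO and 384 ± 32.4 bp with 3MB-PP1 on unlocalised contigs and 549 ± 15.8 bp and 422 ± 63.6 bp on unplaced ones (SD, n = 4). The unlocalised contigs of chromosome 14 held the most peaks of any chromosome, 1140 on 7 contigs. Those of chromosome 22 held 490 on 7 contigs.

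Some contigs had several peaks in some lists and none in others, irrespective of treatment. KI270714 (chr1_KI270714v1_random) had 11, 13, 13 and 11 peaks with DMSO and 11, 13, 8 and 0 with 3MB-PP1. KI270706 (chr1_KI270706v1_random) had 5, 0, 0 and 18 with DMSO and 11, 13, 17 and 13 with 3MB-PP1. KI270746 (chrUn_KI270746v1) had 0, 11, 0 and 14 with DMSO and 10, 13, 13 and 0 with 3MB-PP1. Such a jump from about 10 peaks to none was not bound to 1 library or group. In all, 49 contigs had a peak in 8 of 8 lists, 4 in a single list, and 15 in between, and 19 contigs had fewer than 10 peaks over the 8 lists.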

How the data were processed

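Each of the 8 libraries has its own deposited list of called peaks. MACS2, DESeq2 and hg38 are named in the submitters' processing notes, without versions or roles. The aligner, the treatment of reads that map to several copies, the Tn5 shift and the calling control are not given in the sources used here, and each bears on repeats. From the values, columns follow a MACS2 table. Pileup, as deposited, is a coverage signal per peak, the deposited −log10 p and −log10 q are tests within a list, and the deposited fold is a ratio to local background. These are the authors' values and were used only to rank, filter or describe peaks within a list. Deposited lengths are in bp.

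Peaks were selected by sequence name, and merged into regions where they overlapped by at least 1 bp. Differences between group means were tested by exact two-sided permutation over 70 assignments, with Benjamini-Hochberg adjustment over 7 measures or 83 sequences. Contigs were compared with chromosomes 1 to 22 and X by sign flips over 8 libraries. Contigs were described if among the 12 with most peaks or not overlapping in share. Regions were named if among the 10 with highest mean percentile, at most 3 per contig, or exclusive to a group. Beyond these rules, the wide spacer stretch and the other rDNA regions, the single regions of GL000214, KI270713, KI270538 and GL000205, and the contigs KI270714, KI270706, KI270746 and GL000220 were named after their values were seen. The contig shares of same-numbered libraries were positively but at most moderately correlated (0.245, 0.340, 0.520 and 0.111), which was not tested. DMSO replicate 4 correlated best with 3MB-PP1 replicate 2. The number was also used as a block, though these values do not establish a pairing. The members, lists and tests were chosen with earlier results of these data known. At most 1.48% of contig peak positions were identical between any 2 of the 8 libraries. Alternatives were −log10 q minimums of 2 and 5, equal list lengths, a common smallest width of 135 bp, other overlaps, odd and even numbers apart and leaving out each library. Gene names came from a RefSeq table (GRCh38.p14) that names no contig, and contig sequence was not used here. Functions were tested on simulated data. Tables were handled with pandas 2.3.3 and numpy 2.4.6 in Python 3.11.15, in which the tests were also written out. Plots used matplotlib 3.10.9.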

Additional observations from a re-analysis of the deposited data

Results flagged for a closer look

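In 3 of 48 sets of 4 libraries, 1 library lay far from the other 3 by Dixon's criterion, which chance meets in about 1 of 20 sets. The values are peaks on a contig per 1000 peaks of a list. On GL000216, 3MB-PP1 replicate 4 had 0.146 where the other 3 had 0.173 to 0.177. On GL000205 the same library had 0.158 where the others had 0.110 to 0.117. On GL000009, DMSO replicate 3 had 0.111 where the others had 0.125 to 0.126.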

How the results depend on the processing

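Of 239 recomputed values, 182 kept their direction and their side of the threshold, or a count within 1.5 times, and 57 did not. Differences tested with the replicate block or within odd or even numbers cannot pass, so their side of the threshold was fixed by the design. The tally includes them and is not a measure of robustness. For the changes the cause was not tested unless fewer libraries set it. The width difference of -127 bp did not pass with the replicate block (exact permutation p = 0.125), which by design leaves the difference itself unchanged. It was -176 and -78.25 bp in odd and even numbers, and -147 to -111 bp with 1 library left out. The share of peaks on contigs was reversed in even numbers (-0.00176 percentage points) and ranged from -0.00492 (without DMSO replicate 3) to 0.0289 with 1 library left out. That share difference was 0.0786 percentage points with equal list lengths and 0.807 at a −log10 q of at least 5, and neither passed the test. The percentile difference ranged from 2.53 to 4.79 with 1 library left out. With percentiles taken anew among peaks with a −log10 q of at least 5, it passed the test (19.5, and 19.8 relative to chromosomes). The width difference relative to chromosomes was reversed at a −log10 q of at least 2 (16.0 bp), ranging from -36.5 to -19.3 bp with 1 library left out. The excess of contig over chromosome width was reversed at a −log10 q of at least 2 (-66.9 bp) and 5 (-669 bp).

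Regions called only in DMSO numbered 2 with equal list lengths, 3 at a −log10 q of at least 5, 5 with 50% of the region covered, 5 with 3 of 4 lists, 22 and 25 in odd and even numbers, and 1 to 4 (highest without DMSO replicate 4 or 3MB-PP1 replicate 2) with 1 library left out. Regions called only in 3MB-PP1 numbered 2 with equal list lengths, 0 at a −log10 q of at least 2 and of at least 5, 0 with 50% covered, 15 with 3 of 4 lists, 75 and 19 in odd and even numbers, and 2 to 7 (highest without DMSO replicate 4) with 1 library left out. Contigs not overlapping in share numbered 3 by covered length (3 lower with 3MB-PP1), 4 with equal list lengths (4 higher), 4 at a −log10 q of at least 5 (4 higher) and 0 with a common smallest width. The difference in contig peaks among the 100 highest was 9 for the 50 highest, 36 for the 500, 48.75 for the 1000, 4.5 by fold enrichment, 4.75 without GL000225, KI270733 and KI270438, 18 with the replicate block (exact permutation p = 0.125), 17 and 19 in odd and even numbers, and 13.7 to 21 with 1 library left out. The block by design leaves every difference between group means unchanged. With 4 pairs it cannot give an exact p below 0.125, so no difference can pass the test under it. Other ranges with 1 library left out were 104 to 198 (highest without 3MB-PP1 replicate 4) for the number of contig peaks, -51.3 to -11.3 kb for covered length, 0.00569 to 0.0508 percentage points for its share, 1.33 to 4 for contigs with a peak, and 2.58 to 4.88 for the percentile relative to chromosomes.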
